A study of Mus musculus with 2 samples.

Results

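Accessible chromatin at the 3′ ends of protein-coding genes was described in mouse cerebral cortex as a set of 712 gene-end sites, out of 43755 sites found in both mice and 82968 found in either. A site is a stretch covered by overlapping or touching DNase-seq peaks of the shorter of the authors' peak lists, and a shared site has a peak in each mouse. A gene-end site is a shared site on chromosomes 1 to 19 or X whose midpoint lies within 1 kb of the 3′ end of a protein-coding gene record and over 1 kb from every annotated start site, with ends and starts taken from GENCODE M21. The 712 sites are 1.63% of the shared sites. Among the shared sites they were chosen by position, without use of footprints, sequence or the size of a height. A shared site does need a called peak in each mouse, so signal enters the choice through the peak lists. The gene-end sites lie at the ends of 744 of the 21755 coding genes of these chromosomes (3.42%). Because some genes share an end, those genes have 725 distinct 3′ end positions. Of the 744 genes, 688 had 1 site and 56 had 2.

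In DNase-seq, nuclei are treated with the nuclease DNase I and its cuts, which fall mostly in open chromatin, are sequenced. The tissue was the left cerebral cortex of 2 male mice of the hybrid B6CASTF1/J, aged 36 days and untreated as far as the labels say, with 1 library per mouse (replicate 1 and replicate 2). Both mice form 1 group, carry the same donor label and are numbered as separate males. Comparisons below are therefore mainly between kinds of site within each library, and heights of the 2 mice are set side by side as description only. No test across animals was made (an exact permutation test over 2 mice cannot give a two-sided p under 0.5). In bulk tissue fewer cells with an open site and less cutting per cell cannot be told apart, and the parental copies of the hybrid were not told apart here.

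A transcript's 3′ end is set by cleavage and polyadenylation of the RNA, and RNA polymerase II goes on for some distance past it before it stops. Open chromatin in this neighbourhood can belong to an enhancer, to a start site of another transcript or to a boundary element. The zinc finger protein CTCF is the best known protein of boundary elements: it binds a long directional sequence, leaves a clear DNase I footprint, and together with cohesin holds the bases of chromatin loops.

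The sequences below show CTCF matches, the most frequent long pattern at these sites, and whole sites that later results refer to. The first set gives the CTCF matches of 7 of the 8 highest gene-end sites that hold one (the 8th, at Gm21887, occurs in other copies of the genome, see the values on repeated sequence), as 30 bases of GRCm38.p6 on the strand of the match, 5′ to 3′, with the 12-base match in capitals.
Ckb, chr12:111668521-111668550, plus strand: tgagcctgaCCAGCAGGTGGCagcacaaga
Dand5, chr8:84815722-84815751, minus strand: cgcttttagCCACTAGGTGGCaccgcgtcc
Skap2, chr6:51858059-51858088, minus strand: cctaagtggCCAGCAGATGGCagcagcttg
Rpn1, chr6:88106118-88106147, minus strand: ctctttaggCCACCAGGGGACgactggagc
Thbs4, chr13:92751886-92751915, plus strand: cccaggcctCCTGTAGGGGGCgctgtcagc
Copz2, chr11:96862090-96862119, minus strand: cccgtagtaCCTCCAGGTGGCgctctagga
Apoa1, chr9:46230015-46230044, plus strand: gctctaccgCCAGAAGGTGGCgcctctggg
The matches at Ckb, Dand5 and Skap2 had no mismatch to the CTCF core searched, and those at Rpn1, Thbs4, Copz2 and Apoa1 had 1. A footprint covered at least 50% of the match in both mice at all of these except Rpn1, where it did so in neither mouse.

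The second set gives 5 whole sites that lie past the gene's end and outside every annotated UTR, on the plus strand of GRCm38.p6, 5′ to 3′, with the bases inside footprints of both mice in capitals. They are the no-mismatch CTCF site of Ckb, the CTCF site of the activity-regulated gene Egr4, the site outside UTRs and coding sequence with the highest mean over both mice (Fam120a), and both sites past the clock gene Per1, which lie on tRNA genes.
Ckb, chr12:111668481-111668700: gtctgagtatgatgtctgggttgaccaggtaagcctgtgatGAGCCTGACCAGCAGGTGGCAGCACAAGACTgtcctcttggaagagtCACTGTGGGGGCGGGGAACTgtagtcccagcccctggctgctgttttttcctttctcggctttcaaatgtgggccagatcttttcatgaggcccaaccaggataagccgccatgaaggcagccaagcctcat
Egr4, chr6:85510561-85510760: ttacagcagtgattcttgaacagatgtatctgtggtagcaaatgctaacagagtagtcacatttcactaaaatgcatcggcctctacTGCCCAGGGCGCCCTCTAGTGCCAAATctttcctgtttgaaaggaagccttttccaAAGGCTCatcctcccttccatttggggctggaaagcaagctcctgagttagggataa
Fam120a, chr13:48878641-48878880: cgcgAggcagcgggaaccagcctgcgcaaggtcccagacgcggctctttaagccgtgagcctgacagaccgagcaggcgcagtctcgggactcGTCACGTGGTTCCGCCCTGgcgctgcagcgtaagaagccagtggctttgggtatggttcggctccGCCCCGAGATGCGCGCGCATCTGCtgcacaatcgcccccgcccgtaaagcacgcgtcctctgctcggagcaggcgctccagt
Per1 (nearer site), chr11:69110401-69110607: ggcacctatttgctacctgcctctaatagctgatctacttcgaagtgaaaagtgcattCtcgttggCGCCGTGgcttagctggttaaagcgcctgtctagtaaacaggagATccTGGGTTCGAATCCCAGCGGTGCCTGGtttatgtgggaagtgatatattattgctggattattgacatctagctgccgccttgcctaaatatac
Per1 (farther site), chr11:69110821-69111020: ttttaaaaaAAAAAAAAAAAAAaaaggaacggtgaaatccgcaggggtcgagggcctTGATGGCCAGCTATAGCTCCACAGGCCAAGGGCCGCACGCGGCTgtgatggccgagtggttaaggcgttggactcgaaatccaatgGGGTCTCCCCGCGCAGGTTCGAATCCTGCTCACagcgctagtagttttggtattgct
At Ckb the longest shared run of footprint bases contained the CTCF match, and the same held at Egr4, whose match reads on the minus strand. At both Per1 sites the last run of capitals, read from left to right, held the B box of tRNA genes, described further below.

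Accessible sites were about as dense at gene ends as in the sequence around them. Shared sites over 1 kb from every start site numbered 19.8 per Mb of such sequence within 1 kb of a coding 3′ end (95% Poisson interval 18.4 to 21.3), against 19.5 at 1 to 3 kb, 18.2 at 3 to 5 kb (17.1 to 19.3) and 16.1 at 5 to 10 kb. The ratio of the gene-end density to that at 3 to 5 kb was 1.09 (0.992 to 1.199), an interval that includes 1. The interval lay above 1 with the longer peak lists (ratio 1.13, 1.05 to 1.22), with peaks at or above their median height (1.18, 1.04 to 1.34), with the peaks of replicate 1 alone (1.19, 1.11 to 1.27) and against flanks at 5 to 10 kb (1.23, 1.13 to 1.34), so a small excess at gene ends depends on the peaks and flanks used. The sites fell on both sides of the end: 374 lay downstream and 338 upstream, so that 52.5% were downstream (Wilson interval 48.9 to 56.2), where 50.8% of the usable bases lie. The end base itself was inside the site at 63 of 712 (8.85%). In the window 1 to 3 kb from an end the downstream side held 21.1 sites per Mb (19.6 to 22.8) and the upstream side 17.9 (16.4 to 19.4).

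**Figure D1:**
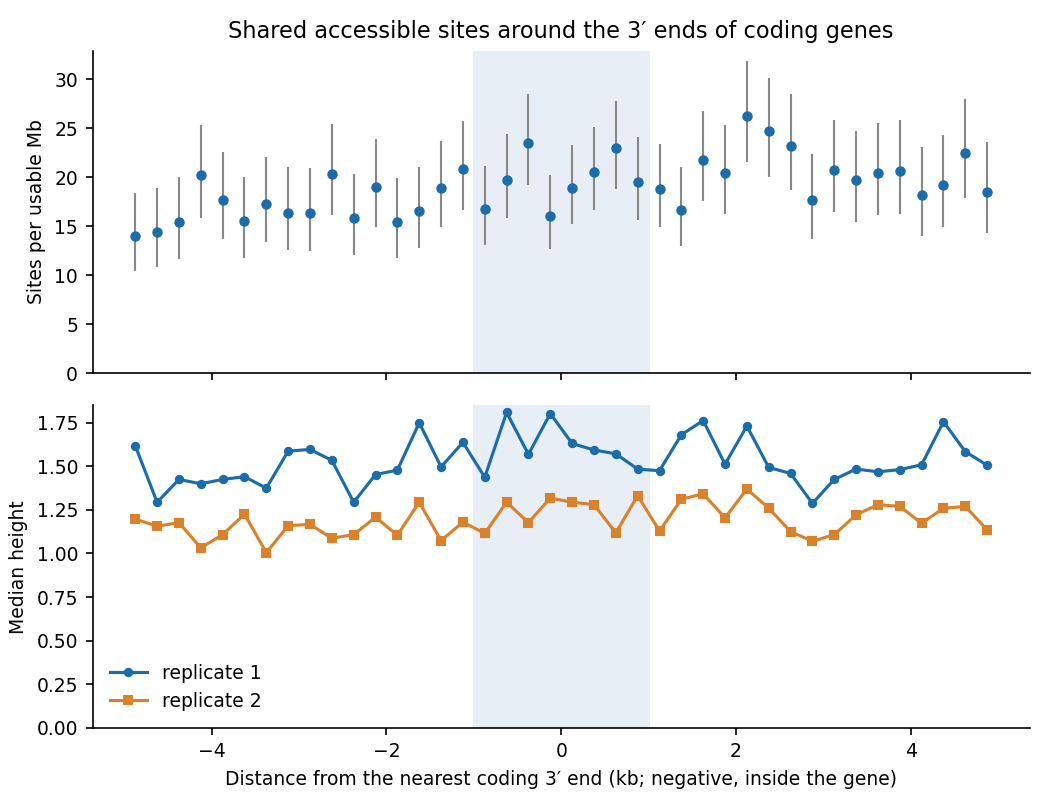
Upper panel, shared sites per Mb of sequence over 1 kb from every start site, in bins of 250 bp by distance in kb from the nearest coding 3′ end (points, with 95% Poisson intervals); lower panel, median height of those sites in each mouse. The band marks the 1 kb window of the gene-end sites, which does not stand out from the bins beside it in density or height.

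By annotation, 301 of the 712 sites were intergenic, 221 lay in a 3′ UTR, 94 in an intron of any gene, 82 in coding sequence, 13 in other exons and 1 in a 5′ UTR. Inside the gene, coding sequence held more sites for its length than the 3′ UTR: 39.6 per usable Mb (31.2 to 49.5) in upstream coding sequence, against 16.7 per Mb (14.6 to 19.2) in the upstream 3′ UTR. Past the end, intergenic sequence held 19.9 sites per Mb (17.7 to 22.2). The coding sites were also GC-richer, with a median GC content of 59.2% over 500 bp, against 51.2% for 3′ UTR sites and 51.0% for intergenic ones. CpG-rich sequence, defined as an observed over expected CpG ratio of at least 0.6 in that window, surrounded 42 of the 82 coding sites (51.2%), against 18 of 221 3′ UTR sites (8.14%) and 28 of 301 intergenic sites (9.30%).

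**Figure D2:**
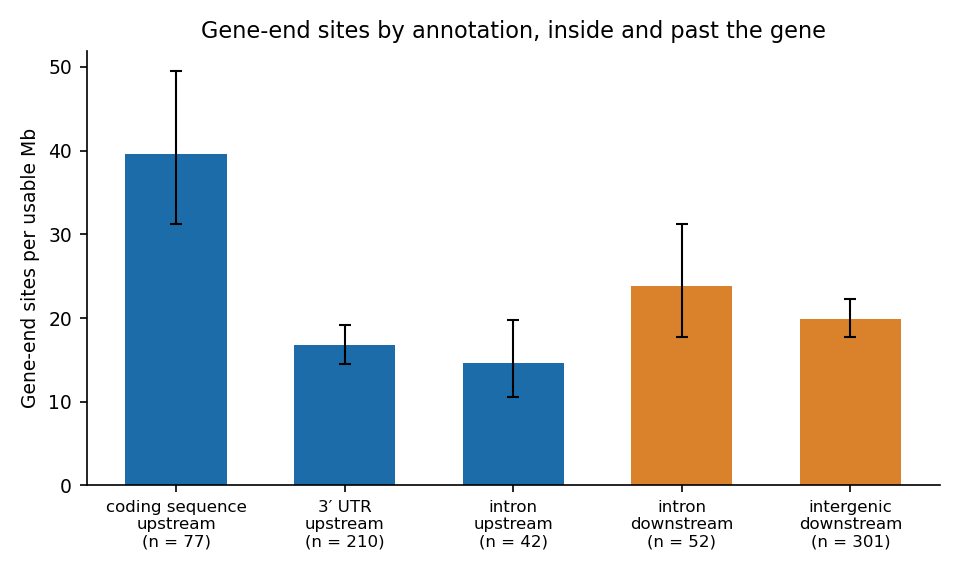
Gene-end sites per Mb of usable sequence of each annotation class within 1 kb of the end, on the gene's side (upstream) and past it (downstream), with 95% Poisson intervals; n is the number of sites. Coding sequence upstream of the end stands above the other 4 classes, with an interval that lies narrowly above that of downstream introns, at 39.6 per Mb against 14.6 to 23.8.

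Gene-end sites were higher than the average distal site. Height is the authors' signal for a peak, read here as cuts scaled to library depth, and the height of a site in a mouse is its highest peak there. The median was 1.59 in replicate 1 and 1.22 in replicate 2 (1.41 ± 0.260, mean and SD, n = 2 mice) for gene-end sites, against 1.25 and 0.991 (1.12 ± 0.183) for the 25791 other shared sites over 1 kb from every start, called other distal sites below. The ratio was 1.28 in replicate 1 and 1.24 in replicate 2 (1.26 ± 0.0275). Most of this was shared with the surroundings of gene ends: sites 1 to 3 kb away had medians of 1.53 and 1.18, sites 3 to 5 kb away 1.48 and 1.16, and sites 5 to 10 kb away 1.46 and 1.14, against 1.199 and 0.963 for distal sites over 10 kb from every coding end. The median GC content over 500 bp was 51.6% for gene-end sites and 48.4% for other distal sites. At 1 to 3 kb from an end it was 51.2%. Within each of the GC bands used below, gene-end sites were higher than other distal sites in both mice. In every band the ratio was smaller than that over all sites of the same mouse. From 45 to 50% GC the medians were 1.27 against 1.21 in replicate 1 and 1.12 against 0.963 in replicate 2. From 60% upward they were 2.54 against 2.34 and 1.38 against 1.26. Sites within 1 kb of a start had medians of 3.32 and 1.81. Gene-end sites had heights from 0.312 to 39.1 in replicate 1 and from 0.275 to 26.9 in replicate 2, and their median width of 220 bp was that of the other distal sites. If heights are scaled cuts, the median gene-end site rests on 255 cuts in replicate 1 and 178 in replicate 2, with a counting error of 6.26% and 7.495%.

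The highest gene-end sites lay in 3′ UTRs, at Lars2 and Cers5. Lars2, which encodes the mitochondrial leucyl-tRNA synthetase, had a height of 39.1 in replicate 1 and 18.2 in replicate 2, at an offset of -656 bp from its end (negative offsets lie inside the gene). Cers5, a ceramide synthase gene, had 21.2 and 26.9, at an offset of -979 bp. No other site passed 10 in either mouse. Fam120a, which encodes an RNA-binding scaffold protein, came next by the mean of both mice, with 9.31 and 6.33 at a site 459 bp past its end, whose sequence is printed above. The gene model Gm21887, near the end of the X chromosome, had 7.20 and 7.79, and Bcat2, the mitochondrial branched-chain aminotransferase, had 6.50 and 8.18 in its coding sequence. Sec14l2, of the SEC14-like lipid-binding family, had 7.83 and 6.198 past its end. Sf3b5, a subunit of the splicing factor SF3B, had 6.73 and 5.86 at the only site in a 5′ UTR. The coding site of Zfp771, a zinc finger gene, had 7.37 and 3.44. In 3′ UTRs, Slc16a5, of the monocarboxylate transporter family, had 5.49 and 6.08, and the reticulon gene Rtn2 had 4.98 and 5.66.

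Some of the highest sites lie on sequence that occurs more than once in the genome, which makes the placing of reads there uncertain. Of the 31-base stretches of the Lars2 site, 59.6% occurred elsewhere on chromosomes 1 to 19, X, Y or M, and all of those of Gm21887 did, with a median of 3 places per stretch. The sites of Gm10722 and Gm11168, close to the start of chromosome 9, consisted of repeat sequence throughout, with medians of 35 and 41 places. Gm10722 had heights of 2.39 in replicate 1 and 8.84 in replicate 2, and Gm11168 had 1.81 and 3.85. In all, 7 of the 712 gene-end sites (0.983%) had at least 50% of their stretches elsewhere, against 0.706% of other distal sites. Without these 7, the median heights were 1.59 and 1.22, and Cers5, none of whose stretches was found elsewhere, was the highest site in both mice.

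Heights of the 2 mice went together across the gene-end sites, and replicate 1 was usually higher. Replicate 1 was higher at 540 of 712 sites (75.8%), against 72.6% of other distal sites and 79.4% of all shared sites. The median ratio of replicate 1 to replicate 2 was 1.28, against 1.24 for other distal sites. At 78 sites (11.0%) the height was over 2 times higher in replicate 1, against 9.60% of other distal sites. At 3 sites (0.421%) it was over 2 times higher in replicate 2, against 0.713% of other distal sites. Among these 3 were Gm10722 and Gm11168, on the repeated sequence described above. The largest ratio was at Crh, the corticotropin-releasing hormone gene, with 4.45 in replicate 1 and 0.942 in replicate 2. It was followed by Dda1 with 4.34 and 1.08, Elf4, an ETS transcription factor gene, with 2.40 and 0.688, Izumo1, a sperm gene for gamete fusion, with 3.27 and 0.949, and the sorting nexin gene Snx20 with 4.68 and 1.38. All of these 5 except Elf4 lay in coding sequence. In the other direction the farthest was Gm10722 with 2.39 and 8.84, followed by Mon2 with 0.756 and 1.69, Gm11168 with 1.81 and 3.85, Arid5a with 0.6496 and 1.28, and Spink1 with 0.712 and 1.40.

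The difference between the mice moved with GC content. Gene-end sites with a GC content under 45% had a median ratio of replicate 1 to replicate 2 of 1.00 (100 sites). The median was 1.21 from 45 to 50% (172 sites), 1.29 from 50 to 55% (241 sites), 1.39 from 55 to 60% (128 sites) and 1.95 from 60% upward (71 sites). For other distal sites the same bands gave 1.07, 1.23, 1.34, 1.44 and 1.84. Coding sites had a median ratio of 1.68, with replicate 1 higher at 72 of 82, and medians of 1.89 in replicate 1 and 1.17 in replicate 2, against 1.66 and 1.24 for 3′ UTR sites. CpG-rich gene-end sites numbered 95 of 712 (13.3%), against 5.17% of other distal sites. The share was 11.0% at 1 to 3 kb from an end and 15.9% among other distal sites in exons. The 95 had medians of 2.85 and 1.53 and a median ratio of 1.74, against 1.52, 1.19 and 1.25 for the other 617. Coding sites stood above 3′ UTR sites in replicate 1 and below them in replicate 2, and the part of GC content in this was not tested.

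**Figure D3:**
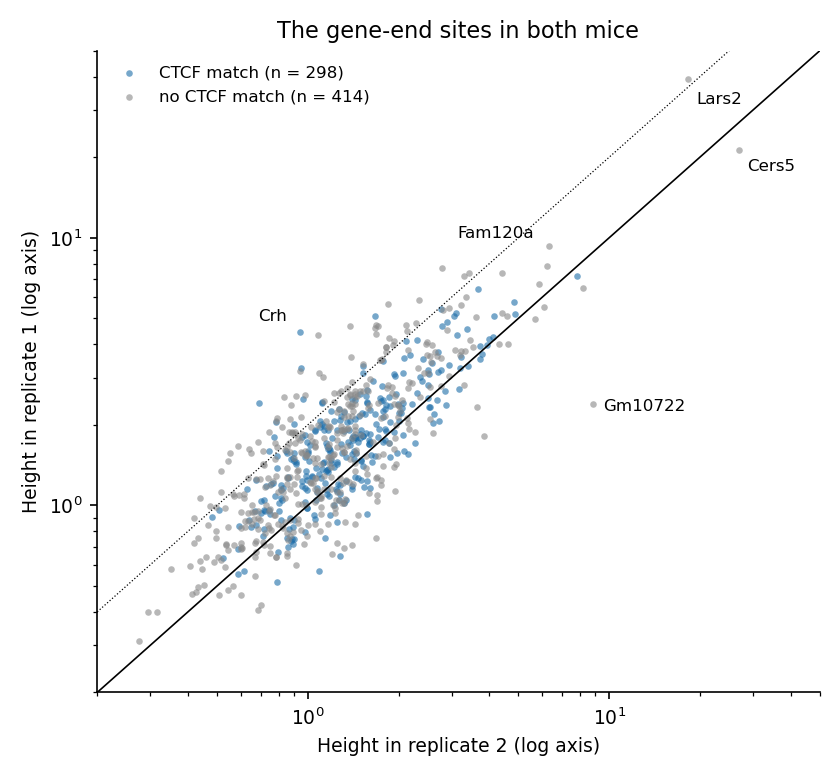
Height of each of the 712 gene-end sites in replicate 1 against replicate 2, both on log axes, with sites that hold a CTCF match in blue and the others in grey. The solid line marks equal heights and the dotted line 2 times higher in replicate 1; Lars2 and Cers5 stand far above the other sites, Crh is the site farthest above the line and Gm10722 the one farthest below it.

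A CTCF match was the most frequent long pattern at gene-end sites. It was searched as a core of 12 letters on both strands with at most 1 mismatch and was found in 298 of 712 gene-end sites (41.9%, Wilson interval 38.3 to 45.5), against 27.4% of other distal sites (26.8 to 27.9) and 11.8% of sites within 1 kb of a start. The same pattern read backwards without complementing, which has the same base composition, was in 0.562% of gene-end sites. The share was as high farther out: 929 of 2316 sites 1 to 5 kb from a coding end (40.1%, 38.1 to 42.1) and 40.6% of those at 5 to 10 kb had a match, against 24.6% (24.1 to 25.2) over 10 kb away. The intervals of the gene-end sites and of the nearby sites overlap, while that of the sites over 10 kb away lies apart. With no mismatch allowed the share was 17.3% of gene-end sites, 16.0% of those 1 to 5 kb away and 10.4% of other distal sites. On the peaks of replicate 1 alone, which hold 1337 gene-end sites, the shares were 27.0% of gene-end sites and 19.1% of other distal sites, and on those of replicate 2 alone, with 900 gene-end sites, 37.3% and 23.0%.

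The CTCF share was set against GC content and height. Gene-end sites had a higher share than other distal sites in each GC band: 46.0% against 31.5% under 45% GC, 44.2% against 26.5% from 45 to 50%, 43.6% against 27.3% from 50 to 55%, 41.4% against 23.7% from 55 to 60% and 25.4% against 16.4% from 60% upward, the last with overlapping intervals (16.7 to 36.6 and 14.2 to 18.99). Split into 3 equal parts by mean height, a match was in 31.5% of the lowest gene-end sites, 118 of 236 of the middle and 44.1% of the highest, against 21.9%, 32.8% and 33.8% of other distal sites in the same height ranges. Sites past the gene's end had a match at 44.7% (39.7 to 49.7) and those before it at 38.8% (33.7 to 44.0). Coding sites had the lowest share among the larger annotation classes, 25 of 82 (30.5%, 21.6 to 41.1), against 138 of 301 intergenic sites (45.8%, 40.3 to 51.5).

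CTCF matches past gene ends pointed more often along the gene than against it. Of the 167 matches past the end, 100 lay on the gene's strand (59.9%, 52.3 to 67.0), while of the 131 before the end 64 did (48.9%, 40.5 to 57.3). The same was seen farther out, with 60.7% (54.8 to 66.4) of matches on the gene's strand past the end at 1 to 3 kb, 64.6% (58.3 to 70.4) at 3 to 5 kb and 57.9% (53.3 to 62.4) at 5 to 10 kb. Before the end the shares were 46.6% (40.2 to 53.2), 44.9% (38.1 to 51.9) and 45.9% (41.2 to 50.6). The intervals of the 2 sides overlap for gene-end sites and lie apart in each of these 3 windows farther out.

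**Figure D4:**
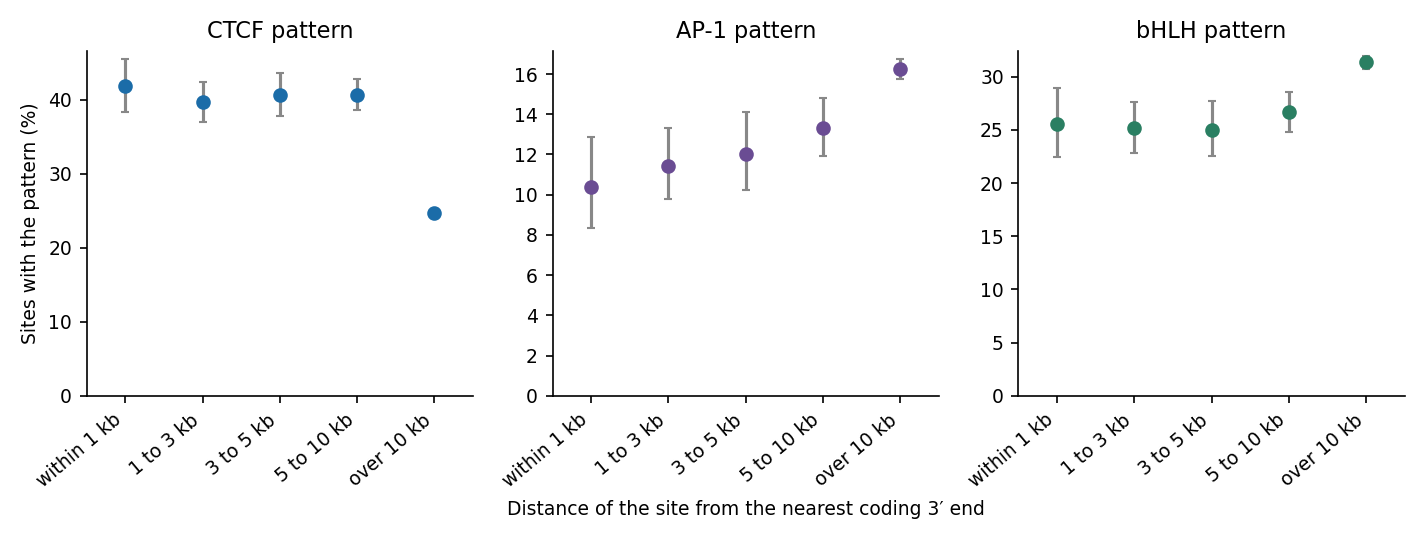
Percent of shared sites over 1 kb from every start that hold a CTCF, AP-1 or bHLH pattern, by distance from the nearest coding 3′ end, with 95% Wilson intervals and axes from 0. Gene-end sites (within 1 kb) lie with the sites up to 10 kb away for CTCF and bHLH, and apart from those over 10 kb away, which have fewer CTCF and more AP-1 and bHLH patterns.

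Footprints marked these matches. A footprint in the authors' list is a short stretch with few cuts, which need not lie inside a site. It was counted when at least 50% of it lay in the site. It covered at least 50% of the CTCF match in 258 of 298 gene-end sites in replicate 1 (86.6%, 82.2 to 90.0) and in 85.9% in replicate 2 (81.5 to 89.4), against 84.2% and 85.2% of the 7058 matches in other distal sites. Read along the strand of the match, footprint cover reached 86.2% and 86.6% of matches near its centre and fell to 0.671% in both mice within 25 to 45 bp after it. A shoulder lay before the match, with 46.6% cover at -18 bp in replicate 1 and 57.7% at -16 bp in replicate 2, and a second rise lay after it, with 24.5% at 67 bp and 31.5% at 68 bp. In other distal sites the shoulder values were 36.7% and 53.0% and the second rise 18.8% and 23.8%, at nearly the same places. Shoulder values are the highest between -26 and -16 bp. In replicate 2, -16 bp is the edge of that range and cover rose on toward the match, so it marks no separate peak.

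**Figure D5:**
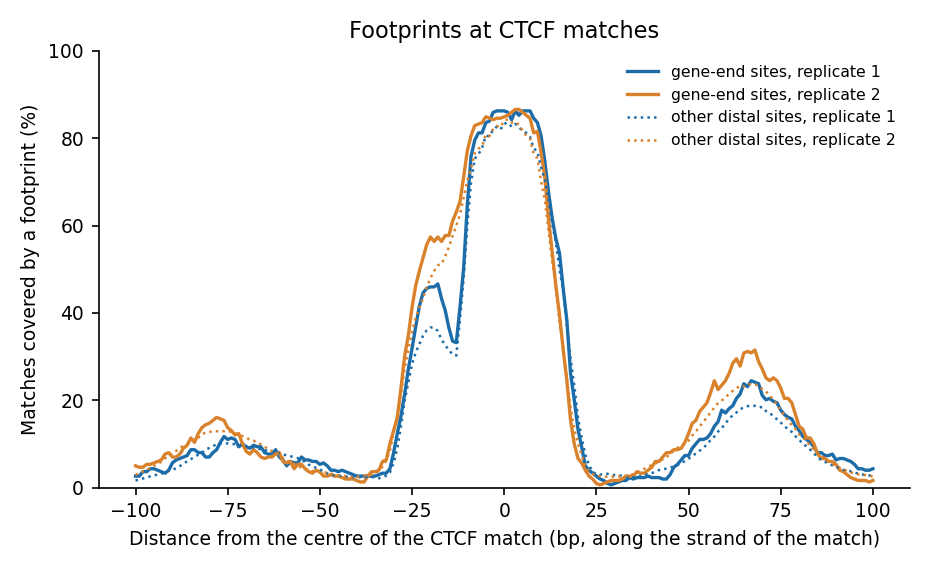
Percent of CTCF matches covered by a footprint at each base within 100 bp of the match centre, along the strand of the match, for gene-end sites (solid) and other distal sites (dotted) in each mouse. All 4 lines have a plateau above 80% at the match, a shoulder before it and a lower second rise near 67 bp after it.

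The highest CTCF sites lay at genes of many kinds. The site past Ckb, the brain creatine kinase gene, had heights of 5.17 in replicate 1 and 4.86 in replicate 2, and that past Rpn1, which encodes ribophorin I of the oligosaccharyltransferase, had 5.78 and 4.83. Dand5, a Nodal antagonist gene, had 6.46 and 3.67 in its 3′ UTR, and Skap2, which encodes a Src-linked adaptor, had 4.27 and 4.12. Thbs4, a thrombospondin gene, had 5.12 and 4.16 in an intron, and Apoa1, the main protein of high-density lipoprotein made in liver and gut, had 5.12 and 3.06 in its coding sequence. Copz2, a coatomer subunit gene, had 2 CTCF sites, with 5.25 and 3.10 past its end and 1.48 and 1.19 before it. Dand5, Thbs4, Apoa1 and Copz2 had no site within 1 kb of a start in both mice, so their end site was open where their promoter was not called. Gene-end sites with a no-mismatch CTCF match had medians of 1.82 and 1.44, and those with 1 mismatch 1.57 and 1.22.

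Nearly all gene-end sites held a footprint. In 682 of 712 (95.8%, 94.0 to 97.0) there was one in both mice, against 93.5% of other distal sites, and in 3 there was none in either mouse. Sites 1 to 5 kb from an end had one in both mice at 95.5% (94.5 to 96.2). The mean number was 3.04 per site in replicate 1 and 2.97 in replicate 2, against 2.83 and 2.77 in other distal sites. At 1 to 5 kb from an end it was 2.94 and 2.92. Footprints of at least 20 bp made up 20.8% and 23.0% of those in gene-end sites, against 14.5% and 16.8%. Of the footprints in gene-end sites, 58.5% of those of replicate 1 and 57.8% of those of replicate 2 overlapped one of the other mouse. The site with the most was past Sncb, the beta-synuclein gene, with 15 in replicate 1 and 7 in replicate 2 over 720 bp and heights of 4.34 and 3.13. Amh, the anti-Müllerian hormone gene, and Mrpl58, a mitochondrial ribosomal protein gene, followed with 10 and 10 and with 9 and 11. Then came Cby3 (10 and 9), Rmnd5b (12 and 6), Shf (8 and 10), the death-associated kinase gene Dapk3 (8 and 9) and the neuronal Fas inhibitor gene Faim2 (10 and 7), all at sites of at least 420 bp.

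The AP-1, bHLH, MEF2 and homeodomain patterns were less frequent at gene-end sites than at other distal sites, with intervals that lie apart. The AP-1 pattern TGANTCA, bound by Fos and Jun proteins, was in 74 of 712 (10.4%, 8.36 to 12.9), against 15.6% of other distal sites (15.1 to 16.0), 11.4% of sites at 1 to 3 kb and 16.2% of those over 10 kb away. The bHLH pattern CAGATG, bound by NeuroD-type factors, was in 182 (25.6%, 22.5 to 28.9), against 30.4% (29.8 to 30.9), and 25.2% at 1 to 3 kb. The MEF2 pattern was in 15 (2.11%, 1.28 to 3.45), against 3.87% (3.64 to 4.12), with 2.73% at 1 to 3 kb and 2.15% at 3 to 5 kb. The homeodomain pattern TAATTA was in 14 (1.97%, 1.17 to 3.27), against 3.77% (3.55 to 4.01). Its reversed form was also less frequent, in 0.983% against 2.32%. The reversed forms of AP-1, bHLH and MEF2 were in 5.76%, 6.32% and 0.843% of gene-end sites, against 5.73%, 5.28% and 1.09%. The promoter pattern GGGCGG of SP1 was in 127 (17.8%, 15.2 to 20.8), against 11.99%, with 16.0% (14.1 to 18.1) at 1 to 3 kb. Its reversed form was in 17.3% of gene-end sites and 11.4% of other distal sites. The polyadenylation signal AATAAA was in 78 gene-end sites (11.0%, 8.87 to 13.5), against 12.6%, with 9.55% and 14.3% for its reversed form. The NRF1 pattern GCGCATGC was in 14 (1.97%, against 1.23%). The intervals of the remaining patterns overlapped those of other distal sites. NFY (CCAATNA) was in 50 (7.02%, against 7.78%), SOX (ACAAAG) in 102 (14.3%, against 16.7%) and ETS (CCGGAAG) in 20 (2.81%, against 2.05%). RFX was in 11 (1.54%, against 2.08%), POU (ATGCAAAT) in 6 (0.843%, against 1.81%) and NFI in 6 (0.843%, against 0.919%). CRE (TGACGTCA), EGR (GCGTGGGCG) and YY1 (AAGATGGCG) were in 3 each (0.421%), against 0.663%, 0.353% and 0.372%. REST was in 0 of 712 and in 0.0892% of other distal sites. All patterns were searched on both strands, and overlaps between patterns were kept.

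The sites near the ends of Per1 and 5 other genes lie on tRNA genes. tRNA genes are short genes read by RNA polymerase III from promoter elements inside the gene, the A box and the B box, and are not among the GENCODE start sites used here. RefSeq, on the same build, annotates 403 on these chromosomes. A tRNA gene overlapped 8 of the 712 gene-end sites (1.12%, 0.570 to 2.20), against 26 of 2316 sites 1 to 5 kb from a coding end (1.12%) and 0.473% of other distal sites (0.396 to 0.564). All 8 were on chromosome 11 and past the gene's end, and 5 of them lay between positions 69036861 and 69124420. They were high, with medians of 3.24 in replicate 1 and 2.18 in replicate 2.

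Per1, a period gene of the circadian clock, had a tRNA-Thr gene at chr11:69110465-69110538 in its nearer site, with heights of 1.83 in replicate 1 and 1.4997 in replicate 2, and a tRNA-Ser gene at chr11:69110919-69111000 in its farther site, with 3.82 and 2.15. The site past Hes7, an oscillating gene of somite formation, covered a tRNA-Leu gene and had 5.05 and 3.605. Ctc1, which encodes a telomere-replication protein, had 3.62 and 2.68 at a tRNA-Ile gene past its end and 3.76 and 3.33 at a second site in its coding sequence. The other tRNA sites were past Borcs6 (tRNA-Ile, 1.13 and 1.95), Arl5c (tRNA-Cys, 2.85 and 2.22) and Mrpl58, whose 2 sites had 1.97 and 1.43 at a tRNA-Arg gene and 4.16 and 3.45 at a pair of them. The B box, searched by its core letters on both strands after these sites were seen, was in 7 of the 8 and in 0 of the other 704 gene-end sites, and in 85 of the 25791 other distal sites. A footprint covered at least 50% of it in 6 of the 7 in each mouse, which in the printed Per1 sites can be read directly. Between 14.1% and 23.2% of the 31-base stretches of the Per1 sites occurred elsewhere in the genome.

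Start sites known to RefSeq alone also lay near some gene-end sites. Within 1 kb of a RefSeq start were 43 of the 712 (6.04%, 4.51 to 8.04), tRNA genes included, against 5.23% of other distal sites. Their median heights were 1.98 and 1.43, against 1.58 and 1.22 for the other 669. The Sf3b5 site lay 20 bp from a RefSeq start of Sf3b5 itself. The CTCF share was 43.0% among those 669 and 10 of 43 (23.3%) among the rest.

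Of 240 genes on 14 lists, which cover cortical cell types, neuronal functions and other groups, 8 had a gene-end site (3.33%), close to the 3.42% of all coding genes. Among cortical excitatory neuron genes it was 1 of 17, Nrgn, the postsynaptic calmodulin-binding protein neurogranin, with heights of 2.56 in replicate 1 and 1.46 in replicate 2 at a site in its 3′ UTR that also lies within 1 kb of the end of Vsig2 on the other strand. Of 22 activity-regulated genes, 2 had a site: Per1, and Egr4, a zinc finger transcription factor, whose CTCF site had 1.91 and 1.51. Per1 was also 1 of 19 clock genes. Of 35 synapse and ion channel genes, 2 had one. The postsynaptic scaffold gene Shank1 had 7.40 and 4.40 in a CpG-rich site where it meets the end of 1700008O03Rik, and Homer2, another scaffold gene, had 0.881 and 0.874. Of 15 neuronal cytoskeleton and axon genes, the kinesin genes Kif1a (2.17 and 1.49) and Kif5a (2.14 and 0.949) had one. Of 18 genes of other tissues, Acta1, the skeletal muscle actin, had one, with 3.74 and 2.63, and it had no promoter site. Among 16 inhibitory neuron, 14 astrocyte, 16 oligodendrocyte, 14 microglia and 12 endothelial and mural cell genes none did, nor among 15 housekeeping genes, 19 genes of cleavage and polyadenylation factors and 10 CTCF and cohesin genes. With lists this short, 0 of 16 leaves an upper Wilson bound of 19.4%.

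Among gene families taken by symbol, solute carriers had a site at 22 of 371 genes (5.93%, 3.95 to 8.81), against 3.42% of all coding genes. They include the GABA transporters Slc6a11 (1.57 in replicate 1 and 1.97 in replicate 2) and Slc6a13 (1.81 and 1.71), both with a CTCF match past the end, and Slc11a1, a metal transporter of macrophages, with 7.17 and 3.31. Of 94 potassium channel genes 5 had one (5.32%, 2.29 to 11.9, an interval that includes the share of all coding genes), with Kcnk12 (2.76 and 2.54 past the end) and Kcnn1 (2.62 and 2.31) the highest. Zinc finger genes had a site at 6 of 394 (1.52%, 0.6998 to 3.28) and olfactory receptor genes at 2 of 1135 (0.176%, 0.0483 to 0.6402), both with intervals below the share of all coding genes. All 21 genes of the gamma protocadherin cluster had one, since they share their last exons: 2 sites on chromosome 18 lay near their ends, with heights of 2.14 and 1.99 and of 3.12 and 2.42. Of the other 48 protocadherin genes, Pcdh1 had one, with 1.96 and 1.03. The X chromosome held 9 gene-end sites (1.26%), against 4.36% of coding genes. The X share of other distal sites is not given here, so these values do not show a shortage particular to gene ends. Whether sites of all kinds are fewer on the X chromosome of these male mice was not tested.

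Genes with a gene-end site had an open promoter slightly more often than all coding genes. A shared site lay within 1 kb of an annotated start of 459 of the 744 genes (61.7%, 58.1 to 65.1), against 57.2% of all coding genes. The interval treats genes as independent, but 48 sites lay near 2 or more coding ends, and the 21 gamma protocadherin genes share 2 sites. Over the 459 genes, the ranks of height at the end and at the promoter, taken from the same library, had a Spearman rho of -0.0560 in replicate 1 and 0.0244 in replicate 2. In 50 genes the end was higher than the promoter in both mice. These included Bcat2, with 6.50 and 8.18 at its end and 1.43 and 0.936 at its promoter, Sec14l2, with 7.83 and 6.198 and then 2.99 and 1.77, and Rtn2, with 4.98 and 5.66 and then 2.75 and 1.55. Per1 stood the other way, with 3.82 and 2.15 at its higher end site and 11.4 and 13.9 at its promoter.

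Of the 56 genes with 2 sites, the 8 first in symbol order, with digits and capitals before lower case, were 1700001O22Rik, 1700023F06Rik, Atxn7l2, Btd, Copz2, Ctc1, Ctdsp1 and Doc2b. The sites of 1700001O22Rik had 7.72 and 2.79 and, with a no-mismatch CTCF match, 4.12 and 2.12. Those of Ctdsp1, a small phosphatase gene, had 4.02 and 2.48 and, farther past the end, 1.51 and 0.901. Atxn7l2 held the lowest gene-end site in both mice, with 0.312 and 0.275, and 0.3997 and 0.316 at its other site. Doc2b, a calcium sensor of vesicle release, had 1.81 and 1.44 in its 3′ UTR and 0.643 and 0.667 past its end.

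Ends that meet ends were compared with the rest. At 42 sites (5.90%) coding genes on both strands had their 3′ end within 1 kb. Their median heights were 1.88 in replicate 1 and 1.40 in replicate 2, against 1.58 and 1.21 at the other 670, and their CTCF share was 17 of 42 (40.5%, 27.0 to 55.5), against 41.9%. The interval of the share covers the value of the other sites.

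Gene-end sites were called in 1 mouse alone about as often as sites in the flanks. Of the gene-end sites of replicate 1, 53.3% (50.6 to 56.0) also had a peak in replicate 2, against 54.9% of sites 1 to 5 kb from an end and 60.4% of other distal sites. Of those of replicate 2, 80.1% (77.3 to 82.6) had a peak in replicate 1, against 77.1% and 70.8%. Sites called in replicate 1 alone had a median height of 0.787 and those in replicate 2 alone 0.709.

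At the limits of the window, the sites just inside lay 1000 bp from an end, at Spink10 with heights of 0.6995 in replicate 1 and 0.860 in replicate 2 and at Pou2af1 with 2.16 and 1.40. Those just outside lay 1002 bp (Katnal2), 1005 bp (Hnrnpul1) and 1006 bp (Shroom1) away, with 1.64 and 0.956, 1.77 and 1.92, and 2.99 and 1.83. At the limit from start sites, Hcrt, the hypocretin gene, was kept at 1008 bp with 5.64 and 1.85, and sites near the ends of Hist1h1c (992 bp, 5.85 and 5.32) and Hes7 (991 bp, 5.13 and 3.54) were left out.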

How the data were processed

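The authors deposited, per library, 2 peak lists, a list of footprints and a list of false discovery rates on mm10 (GRCm38), per the deposited file list; the last was not used here. Aligner and peak caller: not given in the sources used here. Peak height is the signal the authors deposited, with no stated normalization. Every height (100%) came within 0.02 of a multiple of one smallest unit per mouse, so heights were read as cuts scaled to depths of 160.1 and 145.4 M cuts, and comparison between the mice rests on that inference. The deposited score of a footprint was not used, only its position. The shorter lists hold 72021 and 59150 peaks on chromosomes 1 to 19 and X.

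Peaks of both mice were merged into sites where they overlapped or touched. Distances run from the site's midpoint, and where several coding ends lay near, the nearest set the offset. GC and CpG content were taken over 500 bp around the midpoint. Usable sequence is sequence over 1 kb from every GENCODE M21 start. RefSeq records gave tRNA genes and further starts. A 31-base stretch counts as elsewhere if it occurs more than once on either strand. Wilson and Poisson intervals (95%) cover counting error only. Python 3.11.15, NumPy 2.4.6, pandas 2.3.3, SciPy 1.17.1, pysam 0.24.0 and matplotlib 3.10.9 were used, and the procedures were tested on simulated data. Coordinates are 1-based with both ends included.

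The members, the gene lists, the 18 patterns, the alternatives and the naming rule were chosen with earlier results of these data known. The B box, the tRNA and RefSeq comparisons and the repeated stretches were added after values were seen, as were the families, taken by gene symbol. The rule names the 12 highest sites, the 5 with the largest height ratio in each direction, the 8 genes with most sites, the 8 sites with most footprints, the 8 highest CTCF sites and each listed gene with a site; other genes named were chosen after their values were seen.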

Additional observations from a re-analysis of the deposited data

How the results depend on the processing

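Of 99 recomputed values, 67 stayed close to the value reported (a number of sites within 1.5 times, other values within their SD or interval) and 32 moved; 14 of the 99, for RefSeq starts and repeated stretches, were added after the data were seen, and all 14 stayed. The longer peak list gave 1254 gene-end sites, a median height of 0.9986, a footprint in both mice at 85.8%, a CTCF match at 34.5% and a promoter site at 71.8%. Peaks at or above their median height gave 413 sites, a median of 1.87, a height ratio to other distal sites of 1.08, footprints at 98.5%, CTCF at 48.4%, a GC content of 53.2% and promoters at 56.5%. Reciprocal overlap gave footprints at 97.8%, CTCF at 46.5% and promoters at 55.1%. A window of 500 bp gave 363 sites. Without a CTCF mismatch the share was 17.3%. Heights divided by the median height of all shared sites in the same mouse gave 1.00. GC over the site itself gave 54.0%, and flanks at 5 to 10 kb a density ratio of 1.23. With the peaks of 1 mouse alone, the number of sites ranged from 900 to 1337, the median height from 1.10 to 1.12, the height ratio from 1.15 to 1.30, the footprint share from 84.1 to 93.3%, the CTCF share from 27.0 to 37.3%, the GC content from 51.0 to 52.2%, the downstream share from 47.9 to 52.4%, the promoter share from 64.7 to 75.1% and the density ratio from 1.02 to 1.19. The cause of these shifts was not tested. The promoter share of all coding genes was not recomputed in these alternatives, so their promoter shares have no value to stand beside. In each of the 10 alternatives where it was computed, the CTCF share of gene-end sites was above that of other distal sites (27.0% against 19.1% on the peaks of replicate 1 alone, 17.3% against 10.4% without a mismatch). The density ratio leaving out repeat-rich sites was not run. No paired analysis was possible because there is 1 group with 2 mice. The lists give no value under their threshold, so a site absent from a list is not shown to be closed.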
